A study of Homo sapiens with 12 samples.

Results

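Integrins are the receptors by which cells hold on to the matrix around them, and 10 integrin subunit genes were followed here through a kinase inhibitor experiment in osteosarcoma cells: the alpha subunits ITGA2, ITGA3, ITGA4, ITGA5, ITGA6 and ITGAV and the beta subunits ITGB1, ITGB3, ITGB4 and ITGB5. They were chosen by symbol from the 56140 gene symbols in each library's table, which hold 26 integrin alpha and beta subunit symbols in all. The choice was made with earlier results of these data known. The cells were 143B, an established human osteosarcoma line. One group received only the solvent DMSO, another ceritinib at 1.0 µM, another crenolanib at 1.0 µM, and the last received ceritinib plus crenolanib, also at 1.0 µM each (the combination). RNA was sequenced after 48 h from 3 biological replicates a group, which makes 12 libraries. Ceritinib inhibits ALK and also the insulin and IGF1 receptors and focal adhesion kinase. Crenolanib inhibits the PDGF receptors and FLT3. All groups come from 1 cell line at 1 time point, and the replicates' p-values measure the spread between these cultures only.

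Every integrin at the cell surface is a pair of 1 alpha and 1 beta subunit, and the pair decides what the cell can bind. ITGB1 pairs with many alpha subunits: with ITGA2 it makes a collagen receptor, with ITGA5 the main fibronectin receptor, with ITGA3 and ITGA6 laminin receptors, and with ITGA4 a receptor for fibronectin and VCAM1. ITGAV pairs with ITGB3 or ITGB5 to bind vitronectin and related proteins through their RGD motif, and ITGB4 pairs with ITGA6 in the hemidesmosomes of epithelia. The subunits signal through focal adhesion kinase and SRC, and in bone tumours they are studied for their part in adhesion, migration and metastasis. RNA levels were measured here, not receptors at the surface.

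Levels are FPKM, that is fragments scaled to transcript length and to the library's mapped fragments, so they can be compared between genes. In DMSO the order was led by ITGB1 at 99.96 ± 1.72 FPKM (SD, n = 3), well above ITGA6 (27.8) and ITGA2 (26.7), whose libraries overlapped. Next came ITGA3 (23.4) and ITGB5 (23.0), which also overlapped, then ITGA5 (20.4), ITGA4 (8.19), ITGAV (7.53) and ITGB3 (6.51), each apart from its neighbours. ITGB4 was last at 0.370 FPKM. The order, from values as deposited, differed between groups. ITGA2 ranked second after ITGB1 with each single drug, and ITGA3 and then ITGB5 followed ITGB1 in the combination, where ITGA2 came next after these. After the correction described below ITGA2 was above ITGA3 in the combination, at 31.7% and 29.04% of the alpha sum.

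The libraries held an estimated 20.8 to 29.8 M fragments, and replicates of 1 group correlated at 0.995 to 0.996 across genes. Mitochondrially encoded genes took 22.9% to 25.2% of all FPKM in DMSO. Their share was 28.8% to 29.8% in the ceritinib libraries, 25.6% to 26.3% in the crenolanib libraries and 19.1% to 21.7% in the combination; the part of this share in the results was not tested. The combination libraries stood apart: 10284 to 10358 genes reached 1 FPKM in them against 11220 to 11464 in the other libraries, and they correlated with DMSO libraries at 0.884 to 0.898. Their change from DMSO followed GC content (Spearman 0.654 across 11761 genes, as a description). Changes in the combination are therefore given as deposited and again after a correction for GC content and transcript length; the levels, the alpha and beta sums and ITGB4 are given as deposited only. A trend that the drugs themselves caused would be removed by it too. Among osteoblast lineage markers RUNX2 and SPARC reached the test, while SP7, ALPL, BGLAP, COL1A1, COL1A2 and IBSP lay under 1 FPKM in every library. All 8 blood and thymus markers did too, with 3 of them at 0 and summed levels of at most 0.206 FPKM, and so did all 4 endothelial and all 4 platelet markers. Of 5 epithelial markers only EPCAM reached 1 FPKM.

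Of the 10 subunits 9 reached 1 FPKM in all 12 libraries and were tested, among 11944 genes. Within a group their coefficient of variation was 0.266% to 8.95%. Changes are on the log2(FPKM + 1) scale from limma, with adjusted p-values over all genes tested.

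**Figure D1:**
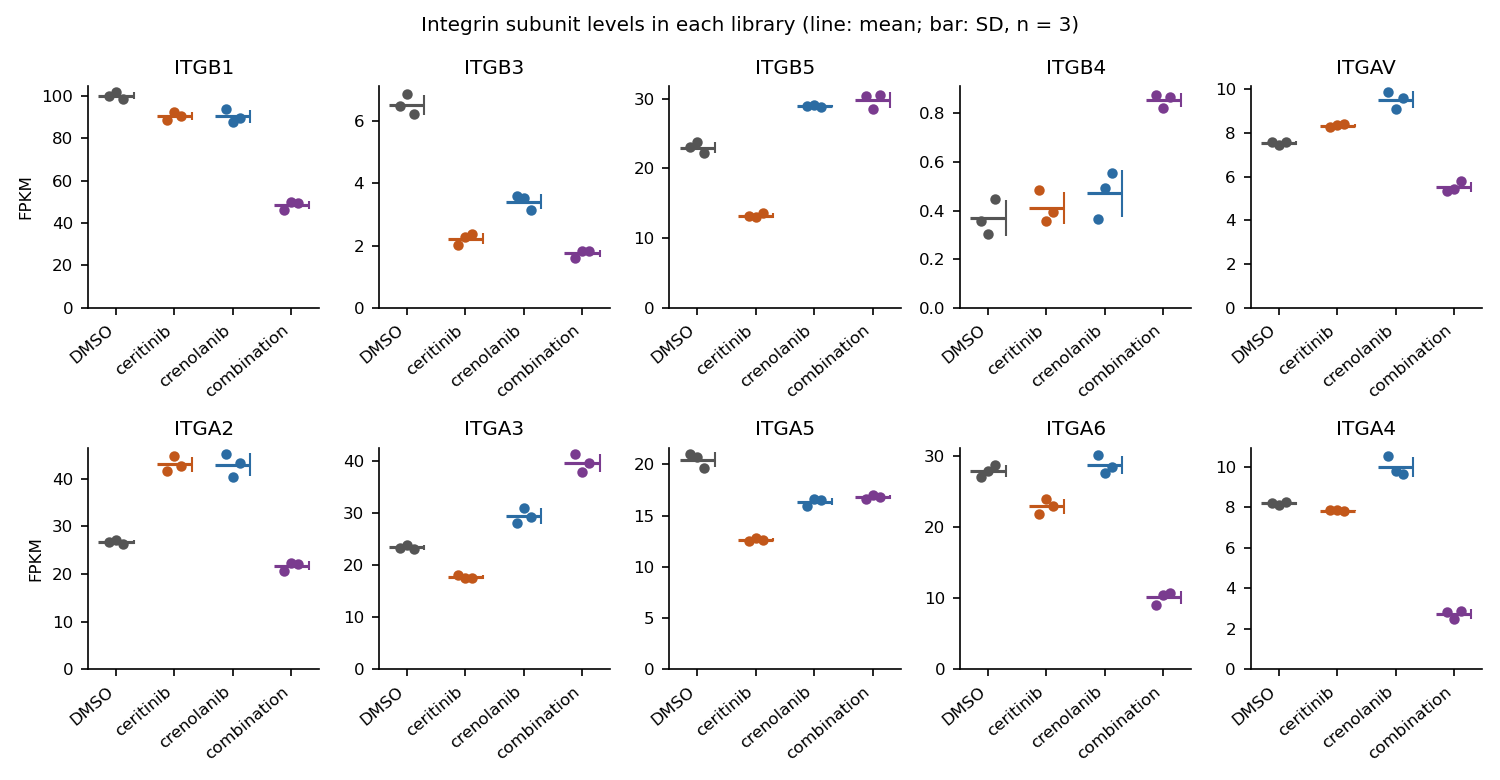
FPKM of the 10 integrin subunits (y axes, each from 0) in the 12 libraries by group (x axes); points are libraries, horizontal lines group means and vertical bars SD (n = 3). ITGA2 is highest with each single drug (42.99 and 42.9 FPKM), ITGB3 is highest in DMSO (6.51), and ITGB5 is lowest with ceritinib (13.2).

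With ceritinib 6 of the 9 tested subunits fell and 2 rose. The background was 16.3% of all genes lower and 20.3% higher. The median change of the 9 was -0.27, against 0.01 over all genes. With crenolanib 5 rose and 3 fell, where 13.0% of all genes were higher and 13.0% lower, with a median of 0.26 against -0.00 over all genes. The groups did not overlap for 9 of 9 subunits with ceritinib and 8 of 9 with crenolanib, against 52.7% and 43.2% of all genes. In the combination 2 rose and 7 fell as deposited, against 36.8% and 50.9% of all genes, and 4 rose and 5 fell after the correction, against 39.5% and 40.8%. All 9 were called there, which is close to the 87.7% of all genes called in either direction and is not a result about integrins. On the TPM scale (FPKM rescaled to a fixed sum) the share of higher calls among all calls with ceritinib was 30.7% in place of 55.5%, and 1 subunit rose in place of 2. The 3 comparisons share the DMSO libraries. As members and lists were chosen with earlier results of these data known, the counts here and below are descriptions. They cannot show an excess over the background.

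The promoters of 4 subunits are shown because these moved in contrasting ways: ITGA2 and ITGAV were higher with each single drug, ITGA5 lower with each, and ITGB5 lower with ceritinib and higher with crenolanib. The sequences are the 250 bases before an annotated start, from RefSeq (GRCh38.p14), 5′ to 3′ on the strand of the gene. Promoter entries matched 7 of the 10 subunits; ITGA3, ITGB3 and ITGB4 are named only. Capitals mark matches, on either strand, to the motifs searched: the TATA box TATAAA, the AP-1 site TGANTCA, the GC box GGGCGG, the CRE TGACGTCA, the E-box CACGTG, the ETS core CCGGAA and the TEAD site GGAATG.
ITGA2, chr5:52989102-52989351, plus strand: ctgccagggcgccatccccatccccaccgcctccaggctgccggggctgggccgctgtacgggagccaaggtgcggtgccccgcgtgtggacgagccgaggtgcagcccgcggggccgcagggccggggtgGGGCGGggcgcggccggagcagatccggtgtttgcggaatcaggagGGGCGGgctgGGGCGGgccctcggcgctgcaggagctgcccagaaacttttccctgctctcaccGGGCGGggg
ITGAV, chr2:186589806-186590055, plus strand: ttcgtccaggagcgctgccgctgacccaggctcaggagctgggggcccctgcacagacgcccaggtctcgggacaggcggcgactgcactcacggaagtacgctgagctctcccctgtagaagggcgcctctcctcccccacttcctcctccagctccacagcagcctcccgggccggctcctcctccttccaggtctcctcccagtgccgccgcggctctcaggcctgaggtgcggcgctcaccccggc
ITGA5, chr12:54419267-54419516, minus strand: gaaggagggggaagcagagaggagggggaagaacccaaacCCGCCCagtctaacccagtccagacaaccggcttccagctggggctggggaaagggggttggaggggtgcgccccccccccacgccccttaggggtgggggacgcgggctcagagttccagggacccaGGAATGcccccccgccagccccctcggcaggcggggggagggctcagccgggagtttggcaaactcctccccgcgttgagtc
ITGB5, chr3:124901419-124901668, minus strand: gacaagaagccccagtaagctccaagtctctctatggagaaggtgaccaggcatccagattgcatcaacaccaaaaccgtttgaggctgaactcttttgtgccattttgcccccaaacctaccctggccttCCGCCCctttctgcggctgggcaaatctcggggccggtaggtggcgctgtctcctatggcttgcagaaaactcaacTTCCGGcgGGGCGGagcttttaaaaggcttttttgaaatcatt

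The ITGA2 window held 4 GC boxes, the ITGA5 window 1 GC box and 1 TEAD site, the ITGB5 window 2 GC boxes and 1 ETS core, and the ITGAV window no match. Of all 35116 promoters given, 42.6% held a GC box, 14.5% an ETS core, 11.9% a TEAD site, 10.7% a TATA box, 6.57% an AP-1 site, 6.34% an E-box and 1.65% a CRE. The matches are letters in a window and were not tied to any change, and ITGAV and ITGB5 have further annotated starts. For ITGB5 the window chr3:124887685-124887934 held no match and chr3:124887366-124887615 held 3 GC boxes, neither with an ETS core. The further ITGAV window held no match.

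ITGB3 (chr17:47253846-47311816, hg38, plus strand), the beta subunit of the vitronectin receptor that osteoclasts also use, had the largest change of any member with ceritinib. It measured 6.48, 6.86 and 6.21 FPKM in the 3 DMSO libraries, 2.02, 2.28 and 2.37 with ceritinib, 3.59, 3.51 and 3.13 with crenolanib, and 1.61, 1.82 and 1.82 in the combination. Every treated library was below every DMSO library, and the crenolanib libraries lay above both other treated groups. The log2 change was -1.22 ± 0.058 (SE, adjusted p = 1.93e-08) with ceritinib and -0.77 ± 0.058 (adjusted p = 2.81e-06) with crenolanib. ITGB3 was lower with ceritinib than with crenolanib (-0.45, adjusted p = 1.03e-04). In the combination the change was -1.45 ± 0.058 (adjusted p = 1.04e-10) and -1.46 after the correction. Its GC content is 52.3%, where the median gene changed by 0.06. A same-strand gene that overlaps it, AC068234.1, was listed at 0 in every library.

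ITGB5 (chr3:124761948-124901418, minus strand), the other beta partner of ITGAV and the one linked to uptake of vitronectin, went opposite ways with the 2 drugs. Its levels were 23.0, 23.8 and 22.2 FPKM in DMSO, 13.1, 13.0 and 13.6 with ceritinib, 28.99, 29.1 and 28.8 with crenolanib, and 30.4, 28.5 and 30.5 in the combination. The ceritinib libraries were the lowest and the crenolanib and combination libraries overlapped at the top. ITGB5 fell by 0.75 ± 0.034 with ceritinib (log2, SE, adjusted p = 1.18e-08) and rose by 0.32 ± 0.034 with crenolanib (adjusted p = 4.07e-05). Ceritinib minus crenolanib, at matched dose and time, was -1.07 (adjusted p = 9.87e-10). The combination was 0.36 above DMSO (adjusted p = 3.85e-07; 0.27 after the correction). Against crenolanib alone the combination's difference was 0.04, with a 95% confidence interval of -0.03 to 0.11 (adjusted p = 0.286), and -0.05 after the correction (adjusted p = 0.159). This difference depended on the scaling. It was 0.23 with median-of-ratios scaling (adjusted p = 2.44e-05), -0.09 on the TPM scale (0.0380) and -0.15 with quantile normalization (4.96e-04).

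The ratio of ITGB5 to ITGB3 within a library was higher in each treated group. This ratio and the next were chosen after the values were seen. ITGB5 over ITGB3 ranged from 3.47 to 3.58 in DMSO, from 5.71 to 6.48 with ceritinib, from 8.07 to 9.20 with crenolanib and from 15.7 to 18.9 in the combination. The 4 groups did not overlap. The ratio was 1.69 times the DMSO mean with ceritinib, 2.41 times with crenolanib and 4.85 times in the combination, where the corrected ratio was 16.5. Each exact two-sided permutation p was 0.1, the smallest that 3 against 3 allows (0.102 adjusted over 42 ratio comparisons).

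ITGAV (chr2:186590065-186680901, plus strand), the alpha subunit that ITGB3 and ITGB5 share, measured 7.57, 7.43 and 7.60 FPKM in DMSO, 8.25, 8.35 and 8.40 with ceritinib, 9.85, 9.08 and 9.62 with crenolanib, and 5.36, 5.42 and 5.81 in the combination. The 4 groups did not overlap, with crenolanib highest and the combination lowest. It rose by 0.13 ± 0.037 with ceritinib (adjusted p = 0.0167) and by 0.30 ± 0.037 with crenolanib (adjusted p = 1.42e-04). The ceritinib call was lost without DMSO replicate 2 (adjusted p = 0.0558), without ceritinib replicate 3 (0.0520) and on the TPM scale (0.236). The direction in the combination turned with the processing: -0.39 as deposited (adjusted p = 5.13e-07) and 0.60 after the correction (adjusted p = 1.23e-09). With 38.3% GC it is the most AT-rich member.

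ITGB1 (chr10:32900319-33005792, minus strand), the beta subunit shared by most pairs here, held 77.0% ± 0.310 of the summed FPKM of the 4 beta subunits in DMSO. It measured 99.7, 102 and 98.4 FPKM in DMSO, 88.6, 92.3 and 90.3 with ceritinib, 93.7, 87.5 and 89.5 with crenolanib, and 46.3, 49.7 and 49.6 in the combination. The single-drug libraries overlapped with each other, below all DMSO libraries and above all combination libraries. The change was small with both single drugs, -0.14 ± 0.034 for ceritinib (adjusted p = 0.00616) and -0.15 ± 0.034 for crenolanib (adjusted p = 0.00819). Their difference was 0.00 (95% confidence interval -0.07 to 0.08). In the combination it was -1.03 as deposited and -0.31 after the correction (adjusted p = 2.66e-08), at a GC content of 39.98%.

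ITGA2 (chr5:52989326-53094779, plus strand), the collagen-binding partner of ITGB1, had the largest rise of any member with either single drug. It measured 26.7, 27.0 and 26.4 FPKM in DMSO, 41.6, 44.8 and 42.6 with ceritinib, 45.1, 40.4 and 43.2 with crenolanib, and 20.7, 22.4 and 22.1 in the combination. The single-drug libraries overlapped with each other far above DMSO, and the combination libraries were below DMSO. The rise was 0.67 ± 0.043 with ceritinib (adjusted p = 3.20e-07) and 0.66 ± 0.043 with crenolanib (adjusted p = 8.94e-07), 1.61 times the DMSO mean for each. The 2 drugs differed by 0.00, with a 95% confidence interval of -0.09 to 0.10. Its change in the combination was -0.29 as deposited (adjusted p = 3.98e-05) and 0.70 after the correction (adjusted p = 6.80e-10). Median-of-ratios scaling gave -0.09 (adjusted p = 0.0675).

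A ratio to ITGB1 sets ITGA2 (40.2% GC) against a gene of nearly the same GC content but not of the same length. Their longest transcripts have 7869 bases (ITGA2) and 3784 bases (ITGB1), and the part of length in the ratio was not tested. ITGA2 over ITGB1 ranged from 0.265 to 0.268 in DMSO, from 0.470 to 0.485 with ceritinib, from 0.461 to 0.483 with crenolanib and from 0.446 to 0.451 in the combination. All 9 treated libraries were above all 3 DMSO libraries. The group means were 1.78, 1.78 and 1.68 times the DMSO mean (exact permutation p = 0.1 for each), and the corrected combination ratio was 0.522 against 0.255 in DMSO. The ratio's direction against DMSO was the same with and without the correction, and that of ITGA2 alone was not. The GC part of the correction is nearly equal for both genes and largely cancels in the ratio, so this agreement adds little. In the combination as deposited both genes fell, ITGB1 (-1.03) more than ITGA2 (-0.29). Against the single drugs the combination's ratio was 0.942 times either mean as deposited, and 1.15 and 1.17 times after the correction.

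**Figure D2:**
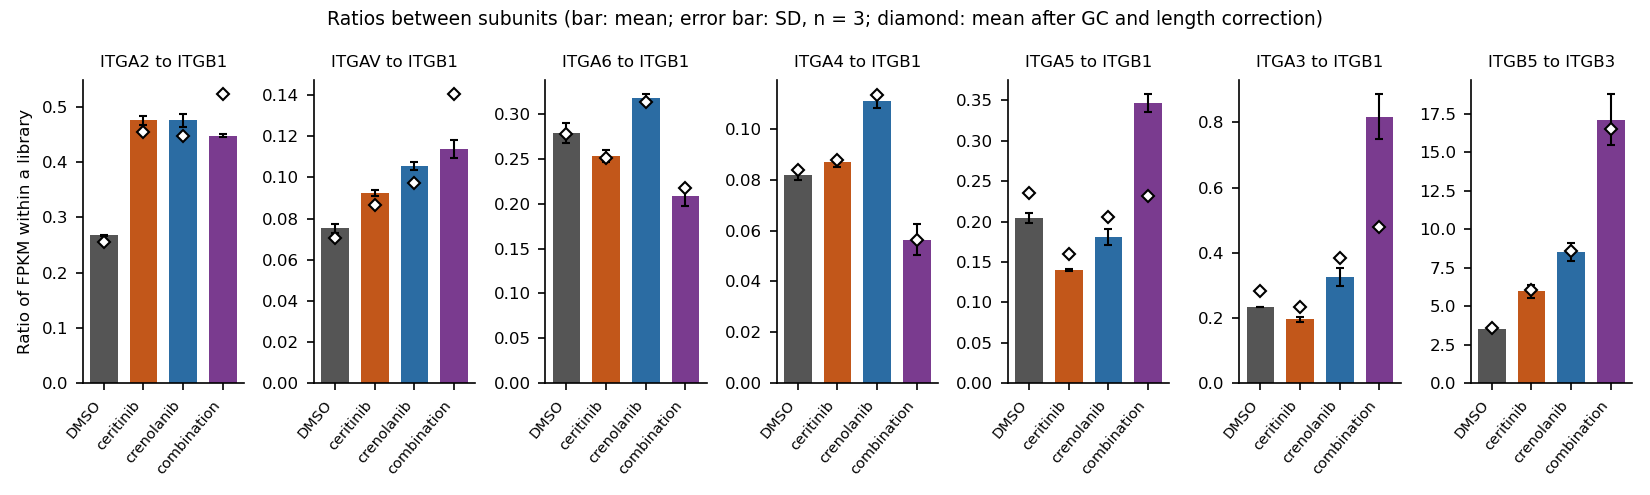
Ratios of FPKM within a library (y axes, each from 0) by group (x axes): bars are means, error bars SD (n = 3), diamonds means after the GC and length correction. ITGA2 to ITGB1 goes from 0.267 in DMSO to 0.476, 0.475 and 0.448 in the treated groups, and ITGB5 to ITGB3 climbs from 3.53 to 17.1.

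ITGA5 (chr12:54395261-54419460, minus strand), the alpha subunit of the fibronectin receptor, was lower in every treated group. Its levels were 21.0, 20.7 and 19.6 FPKM in DMSO, 12.5, 12.8 and 12.6 with ceritinib, 16.0, 16.6 and 16.5 with crenolanib, and 16.6, 17.0 and 16.8 in the combination. No treated library reached the lowest DMSO library, and ceritinib gave the lowest levels. The changes were -0.65 ± 0.031 with ceritinib (adjusted p = 1.78e-08), -0.30 ± 0.031 with crenolanib (adjusted p = 2.91e-05) and -0.27 ± 0.031 in the combination (adjusted p = 2.74e-06; -0.31 after the correction). ITGA5 was higher in the combination than with ceritinib alone (0.38, adjusted p = 9.09e-08; 0.34 corrected). Against crenolanib alone the difference was 0.04 (95% confidence interval -0.03 to 0.10, adjusted p = 0.283), and -0.00 after the correction (adjusted p = 0.953). It too depended on the scaling, at 0.22 with median-of-ratios scaling (adjusted p = 1.34e-05) and -0.09 on the TPM scale (0.0185).

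ITGA3 (chr17:50055968-50090481, plus strand), a laminin receptor subunit, measured 23.3, 23.9 and 23.0 FPKM in DMSO, 18.1, 17.5 and 17.5 with ceritinib, 28.0, 31.0 and 29.2 with crenolanib, and 41.3, 37.8 and 39.7 in the combination. The 4 groups did not overlap, in the order ceritinib, DMSO, crenolanib, combination. ITGA3 fell by 0.38 ± 0.040 with ceritinib (adjusted p = 1.83e-05) and rose by 0.32 ± 0.040 with crenolanib (adjusted p = 1.70e-04). The rise in the combination was 0.73 as deposited and 0.43 after the correction (adjusted p = 2.60e-09). At 61.3% it has the highest GC content of the tested members.

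ITGA6 (chr2:172427354-172506282, plus strand), the other laminin receptor alpha subunit, measured 27.0, 27.9 and 28.7 FPKM in DMSO, 21.8, 23.9 and 23.0 with ceritinib, 30.1, 27.5 and 28.5 with crenolanib, and 9.10, 10.5 and 10.8 in the combination. Crenolanib and DMSO libraries overlapped, ceritinib libraries were lower, and combination libraries lower again. The change was -0.27 ± 0.057 with ceritinib (adjusted p = 0.00282) and 0.04 with crenolanib, which did not pass the test (95% confidence interval -0.08 to 0.17, adjusted p = 0.623). In the combination it was -1.38 as deposited and -0.63 after the correction (adjusted p = 6.13e-08). An antisense gene over the locus, AC078883.1, measured 0.263 to 1.27 FPKM and was highest in the combination; its part in the ITGA6 value was not tested.

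ITGA4 (chr2:181457202-181536187, plus strand), known from leukocytes for binding VCAM1 and fibronectin, measured 8.20, 8.14 and 8.24 FPKM in DMSO, 7.85, 7.86 and 7.82 with ceritinib, 10.6, 9.81 and 9.65 with crenolanib, and 2.83, 2.47 and 2.90 in the combination. The groups did not overlap, and the combination libraries were far below the rest. The ceritinib difference of -0.06 did not pass the test (95% confidence interval -0.16 to 0.04, adjusted p = 0.365). ITGA4 rose by 0.26 ± 0.046 with crenolanib (adjusted p = 0.00165). The combination change was -1.30 as deposited and -0.75 after the correction (adjusted p = 8.53e-09). VCAM1, one of its ligands, was listed at 0 in every library.

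ITGB4 (chr17:75721328-75757818, plus strand), the hemidesmosome subunit, stayed under 1 FPKM in all 12 libraries and was not tested with the others. It measured 0.356, 0.303 and 0.449 FPKM in DMSO, 0.484, 0.357 and 0.393 with ceritinib, 0.364, 0.495 and 0.554 with crenolanib, and 0.875, 0.823 and 0.869 in the combination. Only the combination libraries were clear of DMSO. With no filter on low values its combination change was 0.44 ± 0.059 (adjusted p = 1.19e-04), against 0.04 with ceritinib (0.721) and 0.10 with crenolanib (0.411). ITGB4 shares its locus with GALK1 on the opposite strand, which measured 2.98 to 4.91 FPKM in the other groups and 7.39 to 10.5 in the combination. The part of GALK1 in these values was not tested. ITGB4 is also rich in GC (63.7%), and the median tested gene in the 62.5% GC bin changed by 0.59 in the combination. The ITGB4 change was not corrected for GC, and the part of GC in it was not tested.

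**Figure D3:**
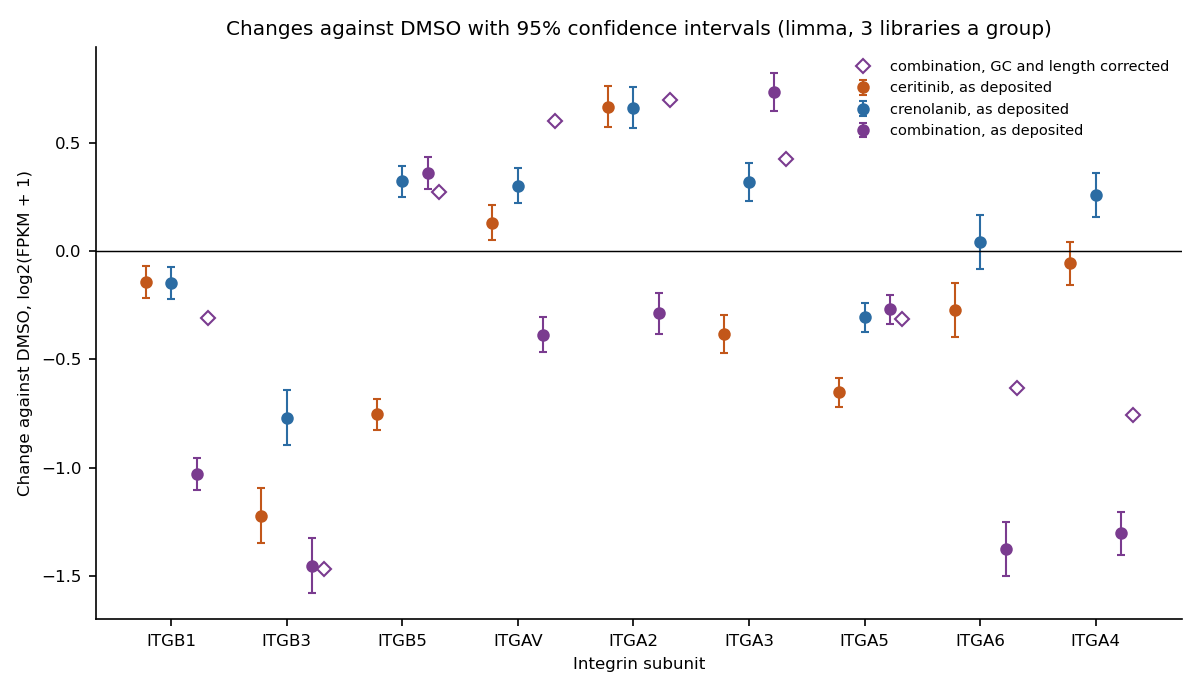
Change against DMSO (y axis, log2(FPKM + 1)) of the 9 tested subunits (x axis) with each drug and the combination; filled points are values as deposited with 95% confidence intervals, open diamonds the combination after the GC and length correction. ITGA2 (-0.29 to 0.70) and ITGAV (-0.39 to 0.60) cross 0 between the as-deposited and corrected values.

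Between the 2 drugs, at equal dose and time, 7 of the 9 subunits were lower with ceritinib than with crenolanib and 0 were higher, where 15.4% of all genes were lower and 19.4% higher. The differences ran from -1.07 for ITGB5 and -0.70 for ITGA3 to -0.17 for ITGAV. ITGA2 and ITGB1 were the members without a call. The combination against ceritinib gave 3 higher and 6 lower (35.9% and 51.3% of all genes), and 4 higher and 4 lower after the correction (39.4% and 39.7%). Against crenolanib it gave 1 higher and 6 lower (37.4% and 50.1%), and 2 and 4 after the correction (39.3% and 39.7%). The interaction asks whether the combination differs from the sum of the single-drug changes. It was above 0 for 4 subunits and below 0 for 5 (33.8% and 47.7% of all genes), and after the correction above for 5 and below for 3 (35.2% and 34.9%).

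The sums show the make-up of the 10 listed subunits only, without ITGA1 and the other integrin subunits. With all integrin subunits in the sums 13 share comparisons moved in size and 47 stayed the same. The GC and length correction moved 35 in size, turned 4 and left 21 the same. The 6 alpha subunits summed to 114 FPKM in DMSO, 112 with ceritinib, 137 with crenolanib and 96.5 in the combination, and the 4 beta subunits to 130, 106, 123 and 80.9. Alpha over beta went from 0.879 ± 0.013 in DMSO to 1.06 ± 0.0093 with ceritinib, 1.11 ± 0.0087 with crenolanib and 1.19 ± 0.016 in the combination. ITGA2 made up 23.4% of the alpha sum in DMSO, 38.2% with ceritinib, 31.3% with crenolanib and 22.5% in the combination (31.7% corrected, against 21.2% in corrected DMSO). ITGB5 made up 17.7% of the beta sum in DMSO, 12.5% with ceritinib, 23.6% with crenolanib and 36.9% in the combination (28.0% corrected, against 19.8%). Each of these shares differed from DMSO without overlap between libraries except ITGA2 in the combination as deposited (exact permutation p = 0.1 for the others and 0.2 for that one).

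The members' changes in the combination were set against their GC content. The 5 members under 50% GC (ITGA2, ITGA4, ITGA6, ITGAV and ITGB1) all fell as deposited. ITGA3 and ITGB5 rose, and ITGA5 and ITGB3 fell, among the 4 above it. The median gene of 37.5% to 42.5% GC moved by -0.87 to -0.66, and that of 62.5% by 0.59. Across the 9 members the Spearman correlation of change with GC was 0.467, as a description. ITGB3, ITGA4 and ITGA6 lay below the lower quartile of genes in their GC bin and ITGAV above the upper quartile. ITGB1 and ITGA5 lay between the lower quartile and the median, and ITGA2, ITGA3 and ITGB5 between the median and the upper quartile.

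**Figure D4:**
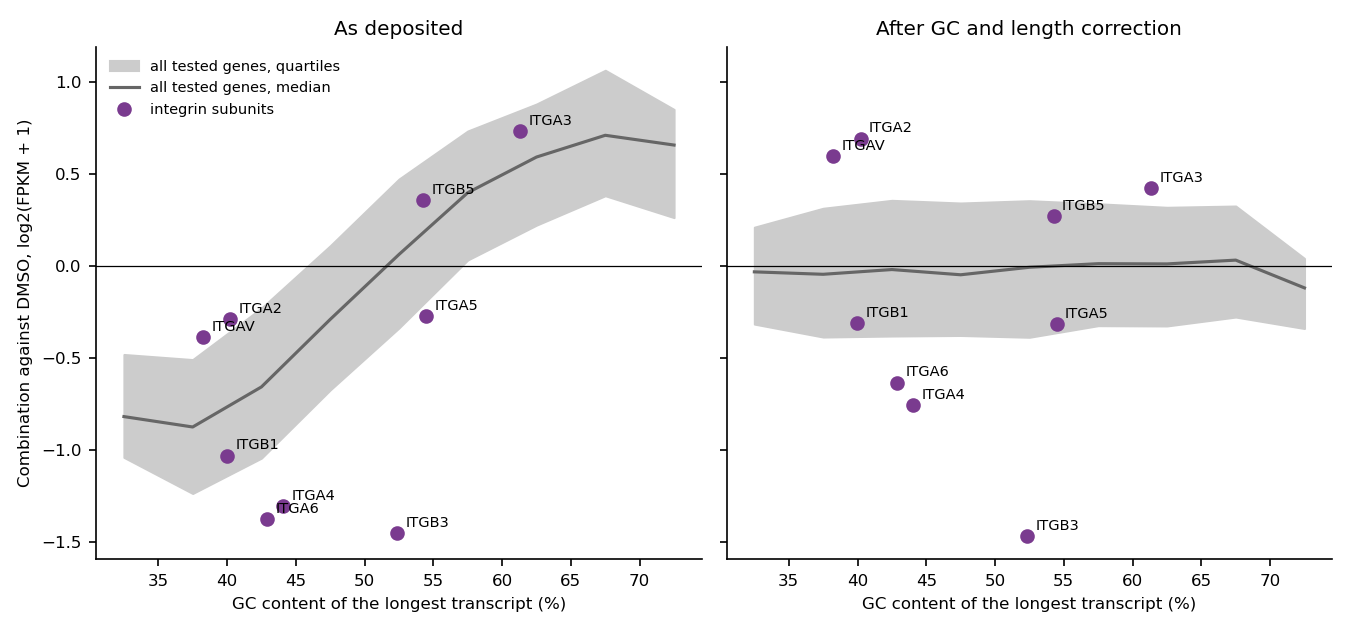
Combination against DMSO (y axis, log2(FPKM + 1)) by GC content of the longest transcript (x axis, percent), as deposited on the left and after correction on the right; the line is the median and the band the quartiles of all tested genes in bins 5 points wide, purple points are the 9 tested subunits. The median rises from -0.87 at 37.5% GC to 0.71 at 67.5% on the left and is flat on the right, where ITGB3 lies lowest at -1.46.

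Of the 16 other integrin subunits 5 were tested. ITGA1, which pairs with ITGB1 as a second collagen receptor, rose with ceritinib from 1.74 ± 0.051 to 4.73 ± 0.25 FPKM (log2 change 1.07, adjusted p = 6.81e-09), with crenolanib to 2.68 (0.43) and in the combination to 3.19 (0.61, 1.70 corrected). ITGA10, also a collagen-binding subunit, fell with ceritinib (-0.58) and rose with crenolanib (0.33). ITGA11, a fibrillar collagen receptor subunit, averaged 0.700 FPKM in DMSO and 0.686 with ceritinib. It rose to 1.49 with crenolanib (0.55) and to 2.37 in the combination (0.99, 1.45 corrected). ITGAE, known from T cells, rose in the combination as deposited (0.23), and its corrected 0.057 did not pass the test. ITGA7, at 0.871 FPKM in DMSO and 1.16 in the combination, turned with the correction. Its combination change was 0.21 as deposited (adjusted p = 0.0163) and -0.18 corrected (adjusted p = 0.00927). In all, 1 of the 5 rose and 1 fell with ceritinib, 3 rose with crenolanib, and 4 rose and 1 fell in the combination (2 and 2 corrected). ITGA11 and ITGA7, which are in these counts, averaged under 1 FPKM in DMSO and with ceritinib. They passed the filter through groups where they were higher as deposited, so the filter favoured these rises. The medians of the 5 were 0.03, 0.33 and 0.23, against 0.01, -0.00 and -0.16 over all genes. Of all genes 20.3% rose and 16.3% fell with ceritinib, 13.0% and 13.0% with crenolanib, and 36.8% and 50.9% in the combination. After the correction the combination's shares were 39.5% and 40.8%.

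Of the 26 extracellular ligands 19 were tested. With ceritinib 9 rose and 6 fell (median 0.09), against 20.3% and 16.3% of all genes. With crenolanib 9 rose and 5 fell (median 0.08), against 13.0% and 13.0%. In the combination 8 rose and 8 fell (median 0.03), against 36.8% and 50.9%. After the correction it was 10 and 9, against 39.5% and 40.8%. The medians over all genes were 0.01, -0.00 and -0.16. In the combination 87.7% of all genes were called in either direction. FN1, fibronectin, the ligand of the ITGA5 pair, rose from 18.5 ± 0.393 to 29.1 FPKM with ceritinib (0.63, adjusted p = 8.41e-09), 30.7 with crenolanib (0.71) and 42.9 in the combination (1.17, 2.11 corrected). FN1 and ITGA5 moved in opposite directions in each treated group. SPP1, osteopontin, an RGD ligand of the ITGAV pairs, fell with ceritinib (-0.45), with crenolanib (-0.74) and in the combination (-1.86, -1.47 corrected), and CTGF, a matricellular ligand, fell with ceritinib (-0.39), with crenolanib (-0.25) and in the combination (-2.50, -2.66 corrected). LAMB3, a laminin chain, rose with ceritinib (0.39) and fell with crenolanib (-0.81). Another chain, LAMB1, fell in the combination (-1.30, -0.98 corrected). TNC, tenascin, fell with ceritinib (-0.40), with crenolanib (-0.24) and in the combination (-0.83, -0.70 corrected). THBS1, thrombospondin, rose with ceritinib (0.32) and crenolanib (0.36) and fell in the combination (-1.30, -0.63 corrected).

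Of the 24 activators and partners of the cytoplasmic tails 22 were tested. With ceritinib 2 rose and 8 fell (median -0.05), against 20.3% and 16.3% of all genes. With crenolanib 5 rose and 3 fell (median 0.06), against 13.0% and 13.0%. In the combination 10 rose and 10 fell (median 0.00), against 36.8% and 50.9%. After the correction it was 13 and 7, against 39.5% and 40.8%. The medians over all genes were 0.01, -0.00 and -0.16. In the combination 87.7% of all genes were called in either direction. ACTN1, an actin-binding alpha-actinin, fell with ceritinib (-0.21). FERMT1, kindlin-1, which binds beta tails, fell with ceritinib (-0.32), with crenolanib (-0.36) and in the combination (-1.31, -0.98 corrected), and its relative FERMT2 fell in the combination (-1.30, -0.37 corrected). ILK, the pseudokinase that joins beta tails to parvins, fell with ceritinib (-0.21) and rose in the combination (0.84, 0.39 corrected). The parvin PARVB rose in the combination (1.18, 1.24 corrected). TNS1, tensin, fell with ceritinib (-0.38), with crenolanib (-0.41) and in the combination (-0.93, -0.88 corrected), and TNS3 (0.27) and the parvin PARVA (0.33) rose with crenolanib.

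All 14 membrane partners were tested. With ceritinib 2 rose and 7 fell (median -0.07), against 20.3% and 16.3% of all genes. With crenolanib 4 rose and 2 fell (median 0.04), against 13.0% and 13.0%. In the combination 11 rose and 3 fell (median 0.79), against 36.8% and 50.9%. After the correction it was 9 and 5 (median 0.26), against 39.5% and 40.8%. The medians over all genes were 0.01, -0.00 and -0.16, and -0.01 for the corrected combination. PLAUR, the urokinase receptor that binds integrins sideways, fell with ceritinib (-0.52) and crenolanib (-0.37). The syndecans SDC1 (-0.30) and SDC4 (-0.27) and the tetraspanin CD9 (-0.29) fell with ceritinib. With crenolanib CD63 (0.21) and BSG, basigin, (0.22) rose and SLC3A2, the CD98 heavy chain, fell (-0.22). In the combination the tetraspanin CD63 rose (1.61, 1.14 corrected), BSG rose (1.25, 0.58 corrected), SDC4 rose (0.95, 1.00 corrected) and CAV1, caveolin, fell (-1.72, -1.43 corrected).

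**Figure D5:**
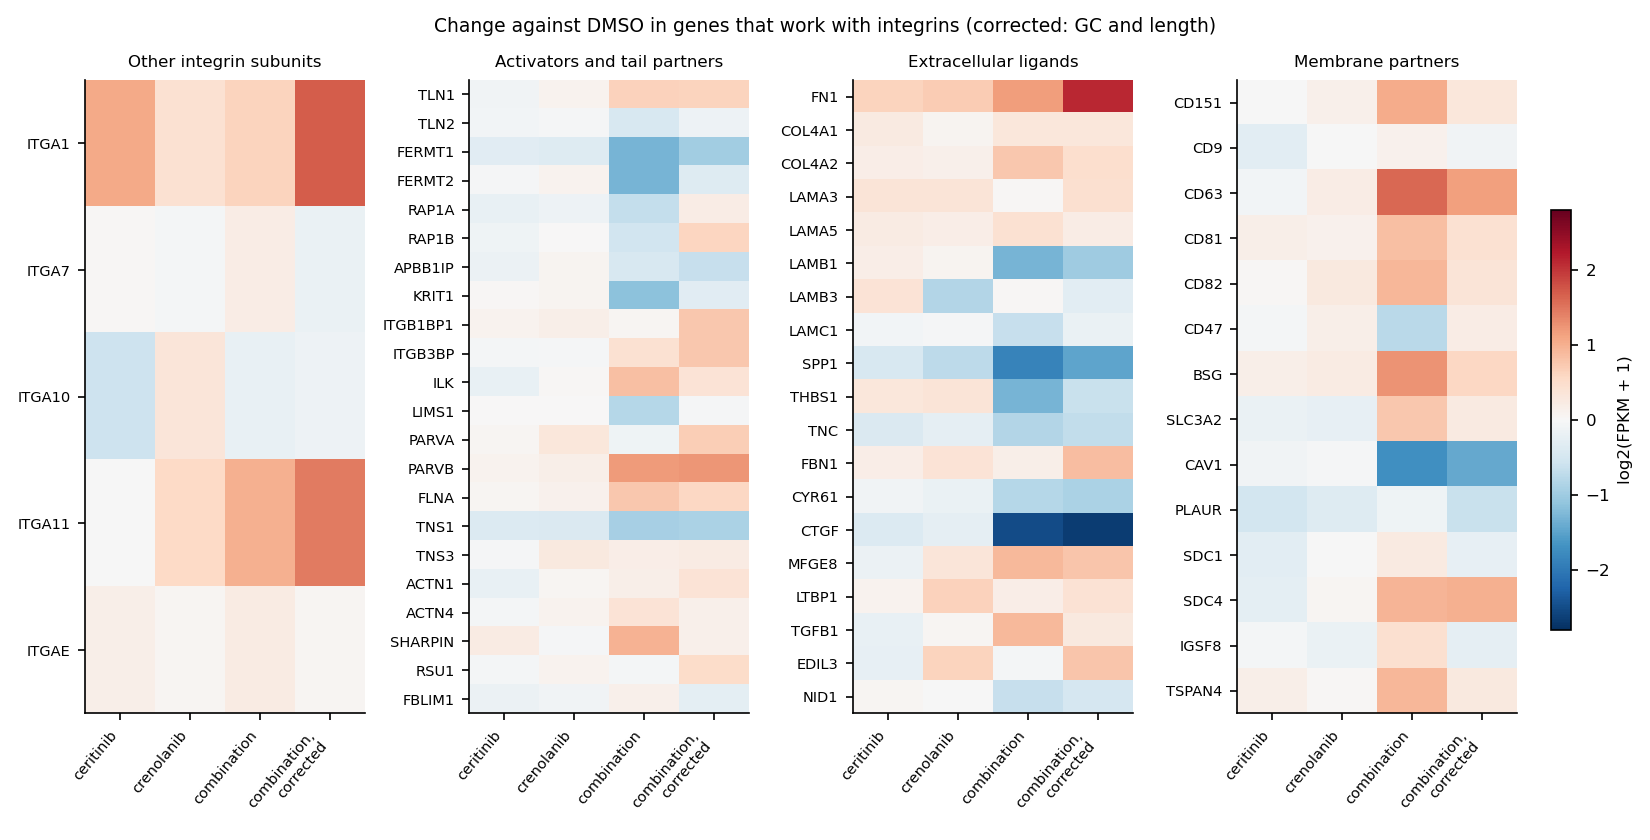
Change against DMSO (colour, log2(FPKM + 1)) of the tested genes of 4 lists that work with integrins (rows) with ceritinib, crenolanib, the combination and the combination after correction (columns). FN1 is red throughout (0.63, 0.71, 1.17 and 2.11) and CTGF blue throughout, down to -2.66.

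The genes whose pattern over the 12 libraries was most like a member's were found by the root mean square difference of log2(FPKM + 1), each gene set to its DMSO mean, among 10553 protein-coding genes as deposited. This was done for the 4 members that changed by at least 0.5 with a single drug. Nearest to ITGA2 were TRPA1 (0.101), IL7R (0.164) and NR3C1 (0.173). Nearest to ITGA5 were HMGA1 (0.072), DCHS1 (0.092) and TUBB6 (0.099). For ITGB3 they were SLC7A5 (0.176), PSAT1 (0.249) and HSPG2 (0.256), and for ITGB5 they were RHOB (0.167), GSN (0.184) and MMP1 (0.191). The members' own spread within groups on this measure was 0.025 to 0.060.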

How the data were processed

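The deposited values are FPKM per gene symbol, made by the authors; the unit was read from the values. Per the submitters' processing notes, FastQC 0.11.2, STAR, StringTie and hg38 were used, the other versions and the annotation being not given in the sources used here. In the labels, the extraction text speaks of a thymic sample and the rest of 143B. The 1 entry without a name was left out. One osteoblast marker is not reported here. GENCODE 29 gave positions, length and GC content.

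Genes with at least 1 FPKM in 3 of 12 libraries (11944) were put on the log2(FPKM + 1) scale and fitted in limma 3.58.1 under R 4.3.3 (1 mean per group, trend on, robust off), Benjamini-Hochberg adjusted, threshold 0.05. The pseudocount of 1 makes changes of low genes smaller. The correction removed, per library, natural splines (5 degrees of freedom) of GC and log2 length from 11761 genes. Depth was estimated from steps of 1 fragment, is rough and entered no test. Shares and ratios were compared by exact permutation. The fit was tested on simulated data. Other scalings, filters, pseudocounts and left-out libraries were tried. All listed subunits are named, and from up to 4 genes per list and comparison with the smallest adjusted p, those past the threshold, though not each of them in every comparison. ITGA7 is named besides, as its direction turned with the correction. Members and lists were chosen with earlier results of these data known.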

Additional observations from a re-analysis of the deposited data

Results flagged for a closer look

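For all 9 tested subunits the combination differed from the sum of the 2 single-drug changes (a test of the interaction in limma, log2 scale, 3 libraries a group). Of all genes 33.8% were above the sum and 47.7% below it, so that 9 of 9 is near the background. As deposited the difference was 0.80 for ITGA3, 0.79 for ITGB5, 0.69 for ITGA5 and 0.54 for ITGB3, above the sum. It was -1.61 for ITGA2, -1.50 for ITGA4, -1.15 for ITGA6, -0.82 for ITGAV and -0.74 for ITGB1, below it. After the GC and length correction the values were 0.53 for ITGA3, 0.71 for ITGB5, 0.65 for ITGA5, 0.53 for ITGB3, -0.62 for ITGA2, -0.96 for ITGA4 and -0.39 for ITGA6. ITGAV turned to 0.18 (adjusted p = 0.00203), and ITGB1 no longer passed the test at -0.04 (adjusted p = 0.275). ITGB3 and ITGA5 fell less in the combination than the sum of the single drugs, and ITGB5 and ITGA3, which went opposite ways with the single drugs, rose.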

How the results depend on the processing

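The median change of all genes in the combination was -0.16 as deposited and -0.01 corrected, against -0.27 (TPM), -0.00 (median-of-ratios) and 0.01 (quantile). The GC and length correction turned, in the combination, ITGAV to 0.60 against DMSO, 0.46 against ceritinib, 0.31 against crenolanib and 0.18 for the interaction. It turned ITGA2 to 0.70 against DMSO. Against ceritinib and crenolanib ITGA2 was -0.95 each as deposited. Corrected, these were 0.024 and 0.049 and did not pass the test (adjusted p = 0.493 and 0.164). The correction gave 4 subunits higher against DMSO, 2 higher against crenolanib and 3 lower for the interaction. It turned the share of ITGA2 against crenolanib (3.09 points) and of ITGAV against DMSO, ceritinib and crenolanib (2.67, 1.71 and 2.28 points), and ITGA2 over ITGB1 against each single drug (1.15 and 1.17 times) and ITGA5 over ITGB1 against DMSO (0.987 times). ITGB3, combination against ceritinib, was -0.23 as deposited (adjusted p = 0.00252). It did not pass the test with median-of-ratios scaling (-0.08, adjusted p = 0.187) or with quantile normalization (0.11, adjusted p = 0.0916). Quantile normalization turned ITGB5, combination against crenolanib, to -0.15 (adjusted p = 4.96e-04). The TPM scale turned ITGB5 and ITGA5, combination against crenolanib, to -0.094 each, and left 1 subunit higher with ceritinib. Combination against crenolanib gave 3 higher with median-of-ratios scaling, where ITGB5 (0.23) and ITGA5 (0.22) were added. With no filter it gave 2, as ITGB4 entered the test (0.34, adjusted p = 8.33e-04). ITGB4 was then also higher in the combination against DMSO, against ceritinib (0.40, adjusted p = 2.67e-04) and for the interaction (0.29, adjusted p = 0.0189). Among the counts, leaving out 1 library moved only that of subunits higher with ceritinib (1 to 2). ITGB4 rests on an estimated 49.2 to 120 fragments a library and ITGB3 on at least 133, so ITGB4 is the least precise.

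Replicate numbers did not pair the libraries (median correlation of 18 pairs -0.001, 1 over 0.1). The replicate block changed no call. With the correction it gave 4 higher against DMSO, 2 higher against crenolanib and 3 lower for the interaction. Each replicate number occurs once in every group, so the block could change the errors but not the estimates. The corrected values above were therefore the same by design (0.60, 0.46, 0.31, 0.18, 0.70, 0.024, 0.049), and the last 2 again did not pass the test.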

Other observations

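The other ratios to ITGB1, chosen after the values were seen, differed between the groups as deposited. ITGA6 over ITGB1 averaged 0.279 in DMSO, 0.253 with ceritinib, 0.318 with crenolanib and 0.209 in the combination (0.218 corrected, against 0.278 in corrected DMSO). ITGA4 over ITGB1 averaged 0.082, 0.087, 0.111 and 0.056 (0.056 corrected, against 0.084). In both, crenolanib was highest and the combination lowest, with and without the correction. ITGAV over ITGB1 was higher than DMSO (0.075) in all treated groups, at 0.092, 0.105 and 0.114 (0.140 corrected, against 0.071). ITGA3 over ITGB1 went from 0.234 to 0.196, 0.326 and 0.818 (0.478 corrected, against 0.283). ITGA5 over ITGB1 went from 0.205 to 0.140, 0.182 and 0.346, and the combination's rise was not there after the correction (0.232 against 0.235). The exact permutation p was 0.1 for each of these against DMSO as deposited, the smallest possible.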
